A study of Homo sapiens with 12 samples.

Results

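The 10 genes SLC7A11, GPX4, ACSL4, FTH1, FTL, TFRC, NCOA4, SAT1, AIFM2 and SLC40A1 act in ferroptosis and in the handling of iron. They were taken by symbol from the 26485 genes of the count files, and all 10 symbols were present in each library. The counts came from OVCAR8 cells, a line established from a human ovarian cancer, grown in RPMI medium with fetal bovine serum. Cells received vehicle (control), 150 nM EC359, a small molecule inhibitor of the leukemia inhibitory factor receptor (LIFR), 100 nM trametinib, an inhibitor of the kinase MEK, or the combination of EC359 and trametinib at those doses, and RNA was taken after 7 h. Each of the 4 conditions had 3 libraries of polyadenylated RNA, which makes 12 in all. A single cell line stands for the tumor type in these data, and the labels do not say whether the libraries of a condition came from separate cultures, so the p-values measure only the spread between these libraries.

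Ferroptosis is a form of cell death in which iron drives the peroxidation of phospholipids that carry polyunsaturated fatty acids. ACSL4 loads such fatty acids into membranes, GPX4 reduces the lipid peroxides with glutathione, SLC7A11 imports the cystine from which glutathione is made, and AIFM2 (also called FSP1) regenerates the reduced form of coenzyme Q as a second, separate protection. Iron enters through the transferrin receptor TFRC, is stored in ferritin, which is built of FTH1 and FTL chains, is released again when NCOA4 takes ferritin to the lysosome, and leaves the cell through SLC40A1 (ferroportin). SAT1 acetylates spermidine and spermine for their breakdown and is known to sensitize cells to ferroptosis.

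The transcripts of 4 of the 10 genes carried an iron-responsive element (IRE), the short hairpin to which the iron regulatory proteins bind when iron is low. As is well known, binding before the coding region blocks translation of ferritin, and binding after it protects the TFRC transcript from decay, so a change in ferritin RNA and a change in TFRC RNA are different kinds of readout. The elements are shown because they set TFRC apart from the ferritin genes in what an RNA count can report. They were found in the untranslated regions (UTRs) of GENCODE 29 transcripts (GRCh38) as a C, then 5 bases, the letters CAGTGN with N other than G, and 5 bases that pair with the first 5. Pairs of G with T were allowed besides A with T and G with C. Exon numbers follow the GENCODE transcript searched, which for TFRC has 18 exons, whereas the annotation used for counting has 19 for it. The 6 letters of the loop are in capitals, and each sequence is read from 5′ to 3′ on the strand of the gene.
FTH1, exon 1, 5′ UTR, chr11:61967573-61967602, minus strand: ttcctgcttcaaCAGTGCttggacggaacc
FTL, exon 1, 5′ UTR, chr19:48965335-48965364, plus strand: ctcttgcttcaaCAGTGTttggacggaaca
SLC40A1, exon 1, 5′ UTR, chr2:189580660-189580689, minus strand: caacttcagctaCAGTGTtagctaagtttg
TFRC, exon 18, 3′ UTR, chr3:196050978-196051007, minus strand: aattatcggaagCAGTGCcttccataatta
TFRC, exon 18, 3′ UTR, chr3:196050574-196050603, minus strand: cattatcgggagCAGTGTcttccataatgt
TFRC, exon 18, 3′ UTR, chr3:196050509-196050538, minus strand: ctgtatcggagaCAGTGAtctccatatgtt
TFRC, exon 18, 3′ UTR, chr3:196050462-196050491, minus strand: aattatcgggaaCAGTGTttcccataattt

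Letters of this kind are rare in the annotation. They were found in the 5′ UTR of 22 of 19652 genes (0.112%) and in the 3′ UTR of 101 (0.514%). The FTH1, FTL and SLC40A1 each had 1 match before the coding region, and TFRC was the only gene of the 10 with matches after the coding region, of which it had 4. A match is a description of the sequence and does not show binding.

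Between 24790392 and 32467283 reads were counted per library. TMM factors, which correct for the make-up of a library, lay between 0.947 and 0.952 in all 6 libraries with EC359 and between 1.04 and 1.06 in the other 6, so values scaled by total counts alone differ from those below where a change is small. Levels are in CPM, that is, reads of a gene per fixed number of counted reads, scaled by TMM, and the thresholds of the study were used, that is, an adjusted p of less than 0.05 together with a change of 2-fold or more, while changes past the adjusted p alone are described as such. Among the markers of ovarian cancer cells, PAX8 (75.8 to 121.8 CPM as condition means), KRT7, KRT8 and KRT18 were abundant, EPCAM was between 10.4 and 11.7 CPM, WT1 was low (4.36 CPM in control, 4.02 with EC359, 3.26 with trametinib alone and 2.45 in the combination), and MUC16 and KRT19 had at most 2 counts in a library. Among the markers of other cells, PTPRC and CD3E had no counts, and PECAM1, VWF, COL3A1 and ALB were at most at 0.5003 CPM in a library. CD68 was at 49.4 to 58.1 CPM as condition means. COL1A1 was at 427 CPM in control, 226 CPM with EC359, 518 CPM with trametinib alone and 324 CPM in the combination, and its part in the results below was not tested. DUSP6, a target of ERK signaling, was at 4.08 CPM in control, 14.9 CPM with EC359, 0.0953 CPM with trametinib alone and 1.54 CPM in the combination. Of 6 output genes of MEK and ERK, 5 were higher and 1 lower with EC359 by the adjusted p alone. The shares of all genes were 30.8% and 30.3%. With trametinib 0 were higher and 6 lower, beside 13% and 15.2% of all genes. In the combination 1 was higher and 5 were lower, beside 35% and 34.7%.

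Of the 10 genes, 9 had enough reads to be tested and SLC40A1 had no count in any of the 12 libraries. By the adjusted p alone, EC359 gave 7 of the 9 above control and 0 below it, beside 30.8% of all 14865 genes tested that were higher and 30.3% that were lower. With total counts only as the scale, the split was 6 higher and 2 lower. SLC7A11 and SAT1 passed the 2-fold threshold as well, which 4.19% of all genes did in the upward direction. The EC359 and control libraries did not overlap for 8 of the 9, beside 64.7% of all genes. The number below control was also 0 at an unadjusted p under 0.05 in edgeR and by DESeq2, with EC359 and in the combination. The median change of the 9 genes was 0.64 on the log2 scale, and that of all genes was -0.01.

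With trametinib alone, 5 of the 9 were higher and 3 were lower, beside 13% and 15.2% of all genes. 0 of the 9 passed 2-fold, beside 1.43% of all genes, and the libraries did not overlap with control for 8, beside 40.1% of all genes. In the combination group 7 were higher than in control and 0 lower (6 and 2 with total counts only), beside 35% and 34.7% of all genes, and SLC7A11 and SAT1 again passed the 2-fold threshold, beside 7.27% of all genes. Combination and control libraries did not overlap for 7 of the 9, beside 71.8% of all genes. The median of the 9 was 0.12 with trametinib alone and 0.77 in the combination. All comparisons with control use the same 3 control libraries, so their values stand side by side and are not independent of each other. In bulk RNA, a change in the RNA of each cell and a change in the share of cells that express a gene cannot be told apart.

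**Figure D1:**
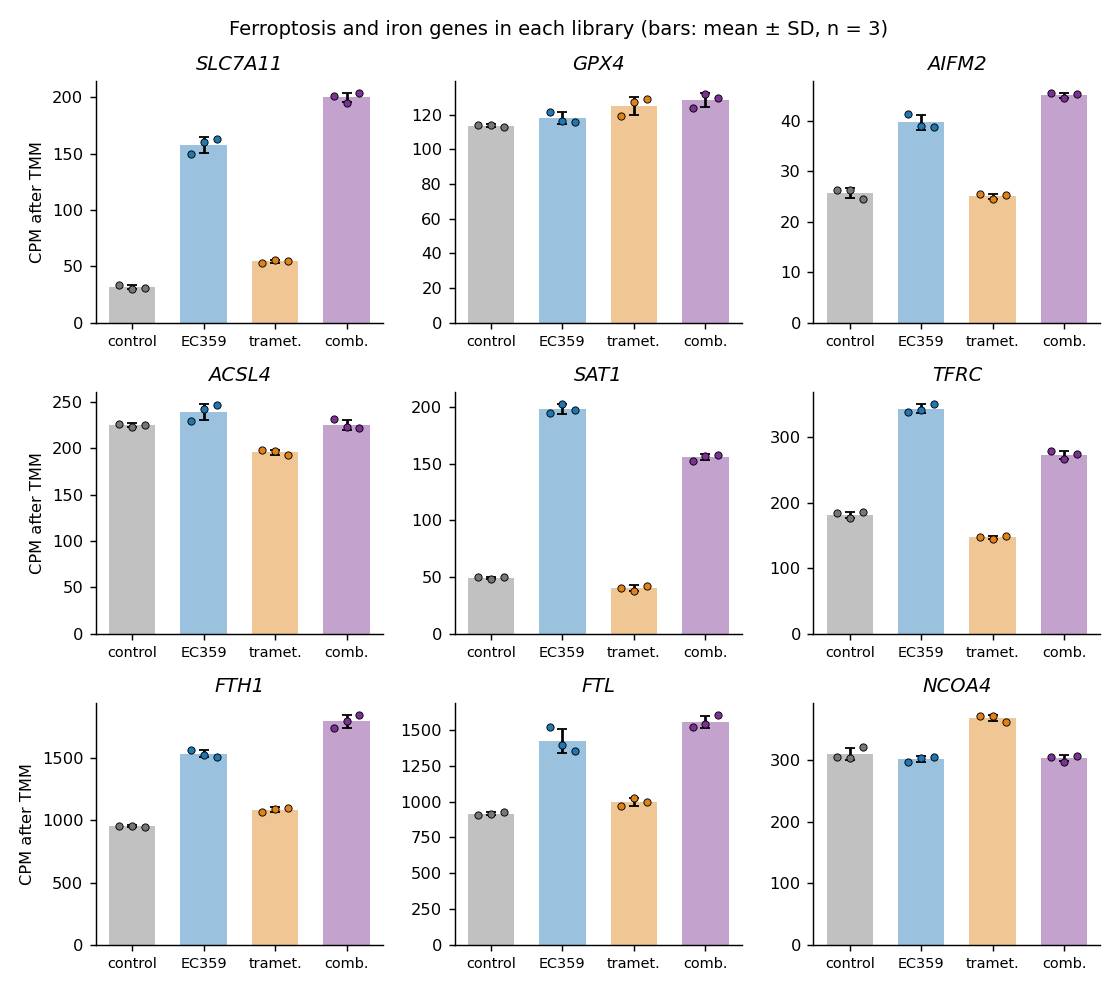
CPM after TMM scaling (linear axis from 0) of each of the 9 tested genes by condition (tramet., trametinib; comb., combination), with 1 point per library, bars for the mean and error bars for the SD of 3 libraries. The SLC7A11 libraries lay between 30.1 and 33.4 CPM in control and between 195 and 203 CPM in the combination, while TFRC and SAT1 were lower with the combination than with EC359.

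**Figure D2:**
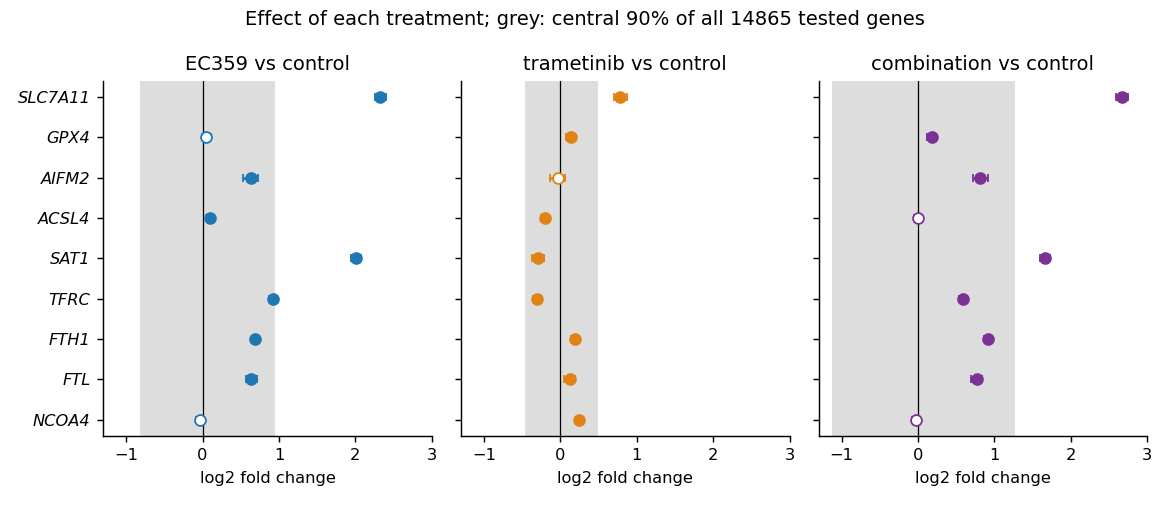
Log2 fold change of each gene against control for EC359, trametinib and the combination, with 95% intervals (1.96 standard errors), open circles where the adjusted p-value was 0.05 or above, and a grey band for the central part of all genes tested. SLC7A11 at 2.33 and 2.67 and SAT1 at 2.01 and 1.66 lay farthest from 0 with EC359 and with the combination, respectively.

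The cystine transporter SLC7A11 (chr4:138164094-138242349, minus strand, hg38) showed the largest rise of the 9 genes. Its control libraries held 33.4, 30.1 and 30.9 CPM, the EC359 libraries 149, 161 and 163 CPM, the trametinib libraries 52.9, 55.6 and 54.3 CPM, and the combination libraries 201, 195 and 203 CPM. The 4 conditions did not overlap, in the order control, trametinib, EC359, combination. EC359 raised it 5.02-fold (log2 2.33 ± 0.04 SE, n = 3 per group, edgeR quasi-likelihood test, Benjamini-Hochberg adjusted p = 6.7e-48), which was above the change of 99.4% of all genes tested. Trametinib alone raised it by 0.79 ± 0.04 on the log2 scale (edgeR, adjusted p = 8.9e-23), and the combination raised it 6.36-fold (log2 2.67 ± 0.04, edgeR, adjusted p = 3e-51).

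Against EC359 alone, the combination raised SLC7A11 by a further 0.34 ± 0.03 on the log2 scale (edgeR, adjusted p = 5.6e-14). The single-agent effects sum to 3.12 on the log2 scale, and the combination fell short of that sum, with an interaction of -0.45 ± 0.05 (edgeR, adjusted p = 8.8e-10). The share of all genes with an interaction at this threshold was 30.3%.

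GPX4 (chr19:1103926-1106789, plus strand), the peroxidase that uses the glutathione, stayed within small changes. Its libraries held 114.0, 114.3 and 113 CPM in control, 122, 116 and 116 CPM with EC359, 119, 127 and 129 CPM with trametinib, and 124, 132.0 and 129.8 CPM in the combination. The treated libraries all lay above the control libraries, by small steps. The rise with EC359 did not pass the test (log2 0.05, 95% interval -0.01 to 0.11, edgeR, adjusted p = 0.155), and with total counts only it turned to -0.08 (adjusted p = 0.02). Trametinib raised GPX4 by 0.14 ± 0.03 on the log2 scale (edgeR, adjusted p = 0.00037) and the combination by 0.18 ± 0.03 (edgeR, adjusted p = 1.4e-06), the latter falling to 0.04 (adjusted p = 0.262) with total counts only. The interval of the combination, 0.12 to 0.24, covers changes well under the 2-fold threshold.

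AIFM2 (chr10:70112267-70132934, minus strand), the enzyme of the coenzyme Q branch, was the least abundant of the 9 genes in CPM. Control libraries held 26.2, 26.3 and 24.4 CPM and trametinib libraries 25.4, 24.4 and 25.2 CPM, which overlapped. EC359 libraries held 41.3, 38.9 and 38.7 CPM and combination libraries 45.5, 44.5 and 45.2 CPM, each above all libraries without EC359. The rise was 1.55-fold with EC359 (log2 0.63 ± 0.05, edgeR, adjusted p = 9e-17) and 1.76-fold in the combination (log2 0.82 ± 0.05, edgeR, adjusted p = 8e-22). Trametinib alone gave -0.03 (95% interval -0.13 to 0.07, edgeR, adjusted p = 0.687). The combination exceeded EC359 by 0.19 ± 0.05 (edgeR, adjusted p = 0.00087), and the interaction was 0.22 ± 0.07 (edgeR, adjusted p = 0.013).

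SLC7A11 and FTH1 had no entry in the RefSeq promoter table (GRCh38.p14), so the bases before their starts were not searched. Of the 8 genes with an entry, AIFM2 alone held an antioxidant response element in the 250 bases before its start. The letters of this element are TGACNNNGC, read on both strands. The match before AIFM2 is shown, in capitals within 30 bases, because the NRF2 factor that binds such elements is a known regulator of several genes described here. The match began 22 bases before the RefSeq start, which falls within the first exon of the longer gene model in the count files, and overlapped an AP-1 match (TGACTCA, both strands) that began 20 bases before it.
AIFM2, chr10:70132828-70132857, minus strand: cagcacgagtGCTGAGTCAcgccccgcccg

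These letters are common. The element was found before 3013 of 27305 starts and the AP-1 letters before 4.16%. Neither the ATF4-type element TGATGNAA (3.19% of starts) nor the E-box CACGTG (6.49%) was found before AIFM2, and the other 7 promoters searched held none of the 4 motifs. A missing match says only that these letters are not in that window.

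ACSL4 (chrX:109641335-109733392, minus strand), the acyl-CoA synthetase that supplies the peroxidizable lipids, moved little and mainly with trametinib. It was measured at 226.5, 223 and 225 CPM in control, at 229.8, 242 and 246 CPM with EC359, at 198, 197 and 192 CPM with trametinib, and at 231, 223 and 221 CPM in the combination. The trametinib libraries were the lowest and did not overlap with those of any other condition. Trametinib lowered ACSL4 by 0.20 on the log2 scale (log2 -0.20 ± 0.03, edgeR, adjusted p = 1.1e-08). The combination did not differ from control by the test (0.003, 95% interval -0.05 to 0.05, edgeR, adjusted p = 0.925), but with total counts only the value was -0.14 (adjusted p = 1.2e-05), and the small rise with EC359 of 0.09 (edgeR, adjusted p = 0.0021) turned to -0.04 (adjusted p = 0.162). The interaction of 0.11 ± 0.04 (edgeR, adjusted p = 0.019) was lost with total counts only (adjusted p = 0.0973).

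Ferritin rose with EC359 in both of its chains. FTH1 (chr11:61964285-61967660, minus strand), the heavy chain that oxidizes iron for storage, was measured at 955, 958 and 945 CPM in control and at 1568, 1525 and 1513 CPM with EC359. It was measured at 1065, 1094 and 1101 CPM with trametinib and at 1743, 1799 and 1846 CPM in the combination. The conditions did not overlap and kept the order control, trametinib, EC359, combination, which is also the order of SLC7A11. The changes against control were 0.69 ± 0.02 on the log2 scale with EC359 (edgeR, adjusted p = 8.2e-34), 0.19 ± 0.02 with trametinib (edgeR, adjusted p = 5.2e-10) and 0.91 ± 0.02 with the combination (edgeR, adjusted p = 6.1e-40). The combination exceeded EC359 by 0.23 ± 0.02 (edgeR, adjusted p = 6.1e-13), and the interaction did not pass the test (0.04, 95% interval -0.02 to 0.10, edgeR, adjusted p = 0.404).

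FTL (chr19:48965309-48966879, plus strand), the light chain that forms the iron core, followed with a wider spread. Its libraries held 905, 913 and 929 CPM in control, 1521, 1396 and 1356 CPM with EC359, 971, 1022 and 999 CPM with trametinib, and 1523, 1544 and 1606 CPM in the combination. The EC359 and combination libraries all stood above the others, and the lowest combination library exceeded the highest EC359 library by a small margin. The rise was 0.64 ± 0.04 on the log2 scale with EC359 (edgeR, adjusted p = 8.4e-10) and 0.77 ± 0.04 with the combination (edgeR, adjusted p = 6e-11). The difference between the combination and EC359 was 0.13 ± 0.04 (edgeR, adjusted p = 0.008). The rise with trametinib alone, 0.12 ± 0.04 (edgeR, adjusted p = 0.0198), did not pass with the replicate number as a block (adjusted p = 0.0728), or without control replicate 1 (0.071), control replicate 2 (0.0739), trametinib replicate 2 (0.061) or trametinib replicate 3 (0.0583).

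Together the ferritin genes took 0.195% ± 0.00101 of the counted reads in control, 0.281% ± 0.0105 with EC359, 0.221% ± 0.00463 with trametinib alone and 0.318% ± 0.00846 in the combination (SD, n = 3). Per kilobase of transcript, the scale on which genes can be compared, FTL was at 1051 CPM per kb in control and 1788.5 in the combination, which moved it from rank 42 to rank 15 of the genes, and FTH1 moved from rank 71 to rank 27. The ratio of FTH1 to FTL per kilobase was 0.738 ± 0.0144 in control, 0.765 ± 0.0310 with EC359, 0.772 ± 0.0125 with trametinib alone and 0.817 ± 0.00749 in the combination (SD, n = 3), and the combination libraries alone lay above those of the other conditions. GENCODE 29 names 25 pseudogenes of FTH1 and 16 of FTL. Reads with several placements were divided among them by the authors. Both genes had values that were not whole in all 12 libraries, and how many reads were divided is unknown. NCOA4, with 3 named pseudogenes, had such values in 10 libraries, ACSL4 and TFRC in 9 each. SLC7A11 had them in 6, SAT1 in 5, GPX4 in 4 and AIFM2 in 0. The ferritin levels are less certain than the others, which are not all free of this limit. FTH1P3, a pseudogene with a row of its own, held between 3.25 and 13.83 counts per library.

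TFRC (chr3:196049284-196082161, minus strand), the receptor that brings in transferrin-bound iron, rose with EC359 and fell with trametinib. It was measured at 184, 177 and 186 CPM in control, at 339, 342 and 352 CPM with EC359, at 148, 144 and 149.5 CPM with trametinib and at 279, 267 and 275 CPM in the combination. No conditions overlapped, and the combination stood between control and EC359. EC359 raised it by 0.92 ± 0.03 on the log2 scale (edgeR, adjusted p = 9.1e-37) and the combination by 0.59 ± 0.03 (edgeR, adjusted p = 1.6e-27).

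The trametinib effect on TFRC was about the same size with and without EC359. It was -0.31 ± 0.03 on the log2 scale against control (edgeR, adjusted p = 4.7e-14) and -0.33 ± 0.03 against EC359 (edgeR, adjusted p = 1.3e-16), and the interaction was -0.02 (95% interval -0.10 to 0.05, edgeR, adjusted p = 0.668). The ratio of TFRC to FTH1 per kilobase, import over storage, was 0.0443 ± 0.00143 in control, 0.0520 ± 0.00192 with EC359, 0.0314 ± 0.000819 with trametinib alone and 0.0354 ± 0.00155 in the combination (SD, n = 3). The libraries of the 4 conditions did not overlap in this ratio, with both conditions that held trametinib below control and EC359 alone above it. As the elements printed above lie after the coding region in TFRC and before it in FTH1 and FTL, the RNA level does not report the translation of ferritin.

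**Figure D3:**
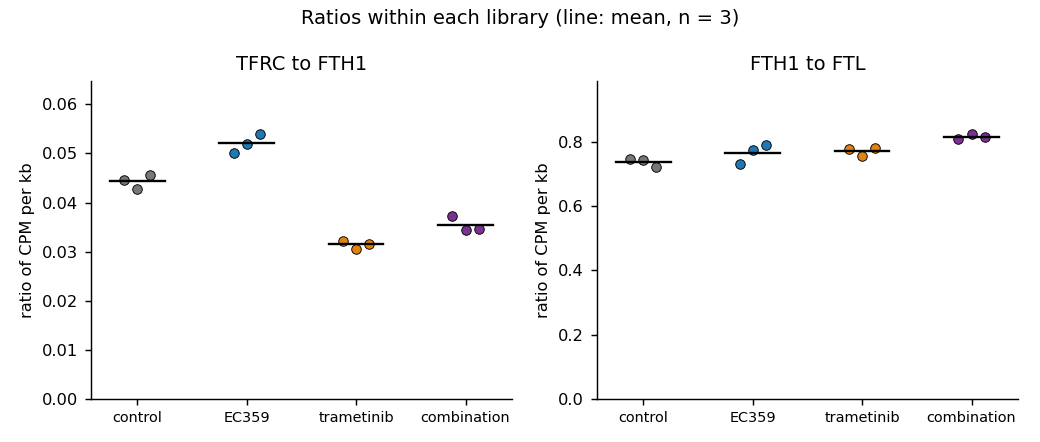
Ratios of CPM per kilobase by condition for TFRC to FTH1 (left) and FTH1 to FTL (right), with 1 point per library and a line for the mean of 3 libraries, on axes from 0. TFRC to FTH1 was highest with EC359 (mean 0.0520) and lowest with trametinib (mean 0.0314), and FTH1 to FTL was highest in the combination (mean 0.817).

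SAT1 (chrX:23783158-23786223, plus strand), the polyamine acetyltransferase, had the second largest rise and a pattern like that of TFRC. Control libraries held 49.9, 48.3 and 50.03 CPM, EC359 libraries 195, 203 and 198 CPM, trametinib libraries 40.8, 37.6 and 42.2 CPM, and combination libraries 153, 157 and 158 CPM. The conditions did not overlap, and each of the conditions with trametinib lay below its counterpart without it. SAT1 rose 4.02-fold with EC359 (log2 2.01 ± 0.03, edgeR, adjusted p = 2.2e-48), more than 99.2% of all genes, and 3.15-fold with the combination (log2 1.66 ± 0.03, edgeR, adjusted p = 5.7e-44). Trametinib changed it by -0.29 ± 0.04 against control (edgeR, adjusted p = 1.3e-08) and by -0.35 ± 0.03 against EC359 (edgeR, adjusted p = 3.7e-15), and the interaction did not pass the test (-0.06, 95% interval -0.15 to 0.04, edgeR, adjusted p = 0.421).

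NCOA4 (chr10:46005088-46030714, minus strand), the receptor for ferritin turnover, was the gene of the 9 that rose with trametinib alone and not in the combination. Libraries held 304.5, 304 and 321.5 CPM in control, 296, 304 and 305 CPM with EC359, and 306, 297 and 306 CPM in the combination, which overlapped. The trametinib libraries, at 371, 372 and 363 CPM, stood above all others. Trametinib raised NCOA4 by 0.25 ± 0.02 on the log2 scale (edgeR, adjusted p = 1.7e-12), whereas the combination gave -0.03 against control (95% interval -0.08 to 0.02, edgeR, adjusted p = 0.252). The interaction was -0.24 ± 0.04 (edgeR, adjusted p = 1.7e-07). With total counts only, NCOA4 was lower than control by 0.17 on the log2 scale with EC359 (log2 -0.17, adjusted p = 2.8e-08) and with the combination (log2 -0.17, adjusted p = 3e-08).

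SLC40A1 (chr2:189560590-189580811, minus strand), the one known exporter of iron from cells, was at 0 counts in all 12 libraries. A count of 0 allows up to 3 counts, which is 0.0883 to 0.127 CPM at the depth of these libraries and covers counting error only. No direction can be read for it.

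**Figure D4:**
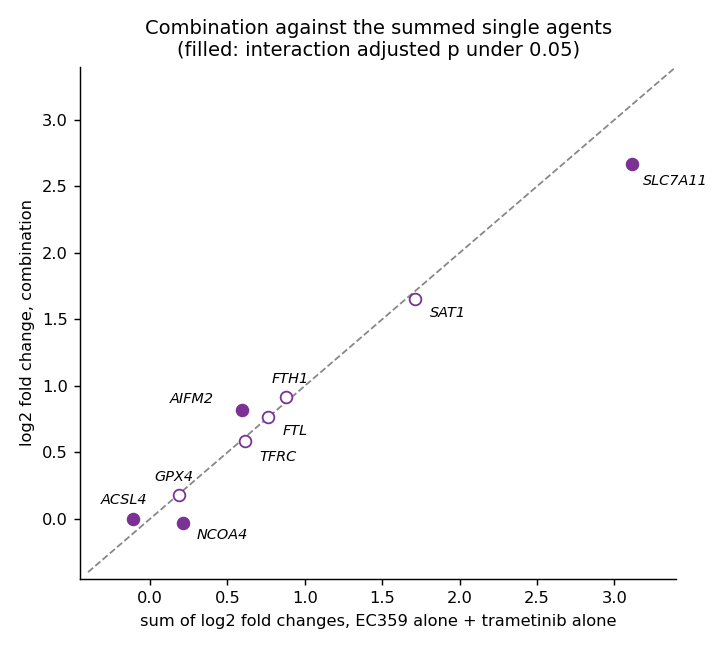
Measured log2 fold change of the combination against control (vertical axis) and the sum of the log2 fold changes of EC359 and trametinib against control (horizontal axis) for each tested gene, with a dashed line of equal values and filled points where the interaction had an adjusted p-value under 0.05. SLC7A11 lay below the line (2.67 against 3.12), NCOA4 lay below it with an interaction of -0.24, and AIFM2 lay above it with an interaction of 0.22.

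Measured against EC359 alone, the combination was higher for 5 of the 9 genes (SLC7A11, GPX4, FTH1, FTL and AIFM2) and lower for 3 (ACSL4, TFRC and SAT1), beside 24.1% and 25.2% of all genes, and 0 passed the 2-fold threshold, beside 3.24%. The libraries did not overlap for 7 genes, beside 53.7% of all genes. Against trametinib alone it was higher for 7 and lower for 1 (6 and 2 with total counts only), beside 35.3% and 32.9% of all genes, with SLC7A11 and SAT1 past 2-fold in the upward direction, beside 6.12%. Their libraries did not overlap for 8 genes, beside 70.3% of all genes. The interaction passed the test for 4 of the 9, with ACSL4 and AIFM2 above the sum of the single agents and SLC7A11 and NCOA4 below it. The share of all genes was 30.3%, and with total counts only the count was 3.

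Per kilobase of transcript the levels spanned a wide range. In control the order was FTL (1051 CPM per kb), FTH1 (775), GPX4 (92.4), NCOA4 (75.9), ACSL4 (42.1), SAT1 (41.6), TFRC (34.4), AIFM2 (7.89) and SLC7A11 (3.26). ACSL4 and SAT1 are neighbors that did not differ beyond their spread in control. In the combination SAT1, at 131 CPM per kb, stood above GPX4 at 104 CPM per kb, and SLC7A11, at 20.7 CPM per kb, stood above AIFM2 at 13.9 CPM per kb. SLC7A11 moved from rank 9222 of the genes in control to rank 3695.

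The genes whose log2 CPM followed SLC7A11 most closely over the 12 libraries, of 9404 genes with at least 10 CPM on average, were RHOB (Pearson r = 0.998), ADAMTS1 (r = 0.998) and TBC1D9 (r = 0.998). RHOB, a small GTPase, changed by 2.26 with EC359, 0.80 with trametinib alone and 2.67 with the combination on the log2 scale. For SAT1 they were DUSP1 (r = 0.999), NFKB2 (r = 0.999) and TNFAIP3 (r = 0.998), which like SAT1 changed less from control with the combination than with EC359. DUSP1, a phosphatase of MAP kinases, changed by 2.68, -0.33 and 2.17 in the same order. As the 12 libraries form 4 groups of 3, high correlations are common, with 771 genes above 0.95 for SLC7A11 and 706 for SAT1, and the values describe the pattern only.

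A wider list of 78 other genes of ferroptosis, iron and polyamines, of which 69 were tested, gives the setting. By the adjusted p alone, EC359 gave 31 higher and 16 lower (25 and 27 with total counts only), beside 30.8% and 30.3% of all genes, with 7 higher past 2-fold, beside 4.19%, and 0 lower. With trametinib 8 were higher and 13 lower (12 and 10 with total counts only), beside 13% and 15.2% of all genes, and 0 passed 2-fold, beside 1.43%. In the combination 33 were higher and 17 lower (23 and 29 with total counts only), beside 35% and 34.7% of all genes, with 6 higher past 2-fold, beside 7.27%, and 1 lower. Past 2-fold in either direction were 7 of the 69 with EC359 and 7 with the combination (10.1% in each). Of all 14865 genes tested, 1038 and 1953 passed it, and the share of lower genes alone is not given here. The median change was 0.08 with EC359 and 0.06 in the combination, beside -0.01 for all genes in both.

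Among the 10 other genes of cystine and glutathione, 8 were higher and 0 lower with EC359, beside 30.8% and 30.3% of all genes. In the combination 7 were higher and 0 lower, beside 35% and 34.7%, and DESeq2 gave 6 higher. The rise of CHAC1 in the combination did not pass with DESeq2 (adjusted p = 0.0628) or in edgeR with total counts only (adjusted p = 0.256). SLC3A2, the partner chain of SLC7A11 in the transporter, rose from a mean of 197 CPM in control to 444 CPM with EC359 (log2 1.18 ± 0.02, edgeR, adjusted p = 1.1e-43) and 581 CPM in the combination (log2 1.56 ± 0.02, edgeR, adjusted p = 4.8e-50), and stayed at 197 CPM with trametinib. The ratio of SLC7A11 to SLC3A2 per kilobase was 0.0481 ± 0.00220 in control, 0.107 ± 0.00590 with EC359, 0.0829 ± 0.00349 with trametinib alone and 0.103 ± 0.00282 in the combination (SD, n = 3). The EC359 and combination libraries overlapped in this ratio and lay above the rest.

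GCLM, the regulatory chain of the enzyme for the first step of glutathione synthesis, rose by 1.57 ± 0.03 on the log2 scale with EC359 (edgeR, adjusted p = 4e-48) and by 1.72 ± 0.03 with the combination (edgeR, adjusted p = 3e-50). CTH, which makes cysteine from cystathionine, was at 7.61 CPM in control, 15.2 CPM with EC359, 10.8 CPM with trametinib alone and 28.8 CPM in the combination, where it rose by 1.92 ± 0.08 (edgeR, adjusted p = 1e-28). CHAC1, which degrades glutathione, rose with EC359 (log2 1.15 ± 0.12, edgeR, adjusted p = 1.1e-11) but was at 5.65 CPM in the combination against 10.2 CPM with EC359, with an interaction of -1.18 ± 0.18 (edgeR, adjusted p = 4.3e-07).

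In the list of lipid substrates and oxidation, 13 of 17 genes were tested, and 7 were higher and 3 lower with EC359, beside 30.8% and 30.3% of all genes, and 9 and 3 in the combination, beside 35% and 34.7%. SCD, which makes the monounsaturated fatty acids that oxidize poorly, rose from 32.8 CPM to 87.6 CPM with EC359 (log2 1.41 ± 0.04, edgeR, adjusted p = 1.5e-36) and to 60.7 CPM in the combination (log2 0.89 ± 0.04, edgeR, adjusted p = 2.4e-26). PTGS2, often used as a transcript marker of ferroptosis, was at 0.129 CPM in control and 1.27 CPM with EC359 (log2 3.25 ± 0.41, edgeR, adjusted p = 8.9e-10), a change that rests on few reads. ALOXE3, a lipoxygenase, was at 1.26 CPM in control and 2.85 CPM in the combination (log2 1.18 ± 0.20, edgeR, adjusted p = 5.3e-07). ALOX5, ALOX12, ALOX15 and ALOX15B had too few reads to be tested.

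Of the 10 genes of quinone and radical trapping, 3 were higher and 5 lower with EC359, beside 30.8% and 30.3% of all genes, and 3 were higher and 4 lower in the combination, beside 35% and 34.7%, which is near the share of all genes. DHODH, the mitochondrial enzyme that also reduces coenzyme Q, was at 17.9 CPM in control and 10.0 CPM in the combination (log2 -0.84 ± 0.07, edgeR, adjusted p = 5.2e-15), opposite in direction to AIFM2. NQO1, a quinone reductase, rose by 0.45 ± 0.03 (edgeR, adjusted p = 1.7e-22).

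HMOX1, which frees iron from heme, was at 19.6 CPM in control, 892 CPM with EC359, 29.9 CPM with trametinib alone and 836 CPM in the combination. It rose by 5.50 ± 0.03 on the log2 scale with EC359 (edgeR, adjusted p = 7.2e-70) and by 5.41 ± 0.03 with the combination (edgeR, adjusted p = 1.8e-69). In the iron uptake list 5 of 6 genes were tested, with 3 higher and 2 lower in the combination, beside 35% and 34.7% of all genes. STEAP3, which reduces iron released from transferrin, was lower in the combination by 0.42 on the log2 scale (log2 -0.42 ± 0.05, edgeR, adjusted p = 3.5e-12), and SLC39A14, an importer of iron not bound to transferrin, was higher by 0.39 ± 0.03 (edgeR, adjusted p = 3e-19).

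The iron sensing list has 3 genes, and in the combination 0 were higher and 3 lower, beside 35% and 34.7% of all genes. FBXL5, the iron-binding protein that targets the iron regulatory proteins for degradation, fell from 30.5 CPM in control to 18.6 CPM with EC359 and 13.6 CPM in the combination (log2 -1.16 ± 0.06, edgeR, adjusted p = 2.6e-24), and its interaction was -0.41 ± 0.09 (edgeR, adjusted p = 0.00013). IREB2, an iron regulatory protein that binds the elements printed above, was named after its values were seen. It was at 51.1 CPM in control, 38.4 CPM with EC359, 51.1 CPM with trametinib alone and 30.9 CPM in the combination (log2 -0.73 ± 0.05, edgeR, adjusted p = 2.2e-20). The list of storage and iron chaperones had 3 of 4 tested genes higher and 0 lower in the combination, beside the same shares. Among them were PCBP1 (log2 0.15 ± 0.02, edgeR, adjusted p = 4e-08, not past the test with total counts only) and PCBP2 (log2 0.32 ± 0.02, edgeR, adjusted p = 1.2e-19), which hand iron to ferritin.

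In the list of iron export and its control, 2 of 5 genes were tested and 0 passed the test in the combination by edgeR, with 0 also at an unadjusted p under 0.05 and 0 by DESeq2. The counts of 0 given above for cystine and glutathione, iron sensing and iron storage were 0 in both of these as well. Of the 7 genes of mitochondrial iron, 1 was higher and 2 were lower in the combination, beside 35% and 34.7% of all genes, with NFS1, the cysteine desulfurase of iron-sulfur cluster assembly, at -0.45 ± 0.06 (edgeR, adjusted p = 2.4e-09). Of the 6 heme genes, 3 were higher and 1 was lower, and of the 9 polyamine genes besides SAT1, 4 were higher and 2 lower in the combination, beside the same shares of all genes. SMOX, which oxidizes spermine, was at 4.99 CPM in control, 14.2 CPM with EC359, 2.54 CPM with trametinib alone and 9.73 CPM in the combination, so that like SAT1 it was lower with trametinib than without, against control (log2 -0.97 ± 0.12, edgeR, adjusted p = 1.5e-09) and against EC359 (log2 -0.55 ± 0.10, edgeR, adjusted p = 6e-06).

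**Figure D5:**
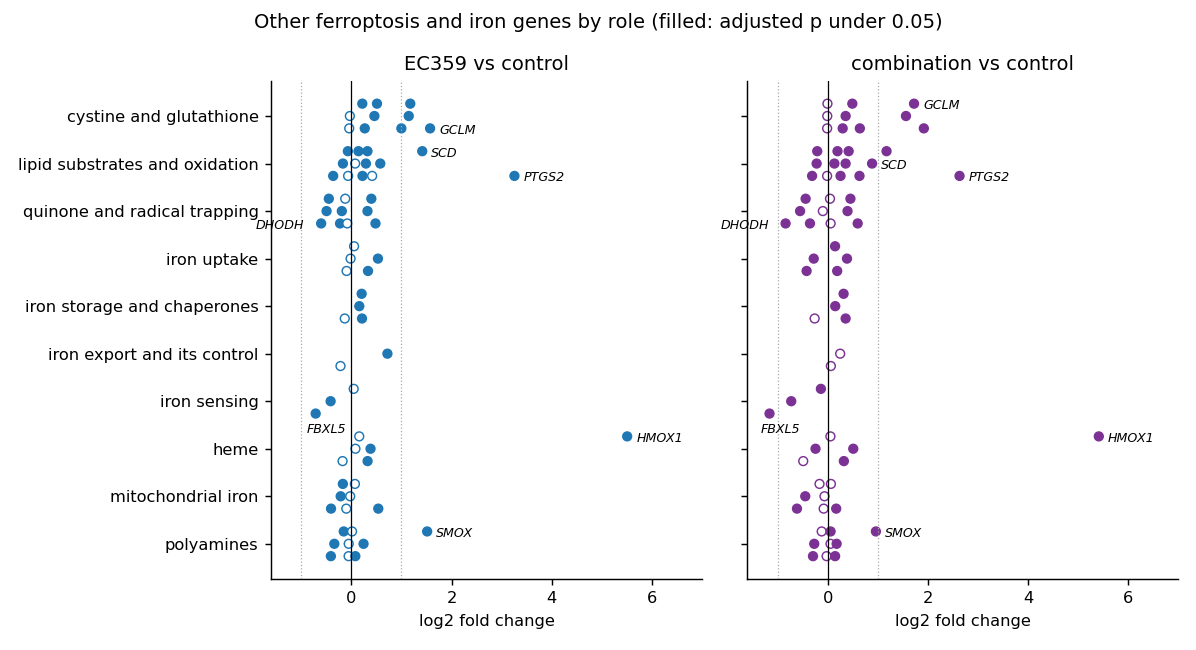
Log2 fold change against control of the other ferroptosis, iron and polyamine genes by role, for EC359 (left) and the combination (right), 1 point per gene, filled where the adjusted p-value was under 0.05, with dotted lines at 2-fold. HMOX1 stood apart at 5.50 and 5.41, and FBXL5 was past 2-fold in the downward direction in the combination at -1.16.

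Known regulators of these genes, which are transcription factors and KEAP1, changed too. Of the 7 regulators listed, 6 were higher and 1 lower both with EC359 (beside 30.8% and 30.3% of all genes) and in the combination (beside 35% and 34.7%). NFE2L2, which encodes NRF2, rose by 0.89 ± 0.03 with EC359 (edgeR, adjusted p = 2.3e-30) and by 0.73 ± 0.03 with the combination (edgeR, adjusted p = 2.1e-26). BACH1, a repressor at NRF2 sites, rose by 1.26 ± 0.04 in both (edgeR, adjusted p = 1.1e-34 and 6.6e-35), and KEAP1, which targets NRF2 for degradation, rose by 0.31 and 0.34 (edgeR, adjusted p = 6.8e-15 and 1.7e-16).

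ATF4, the stress factor that activates SLC7A11, rose by 0.94 ± 0.03 with EC359 (edgeR, adjusted p = 9.2e-37) and by 1.03 ± 0.03 with the combination (edgeR, adjusted p = 1.4e-38). EPAS1, a hypoxia factor, rose by 1.11 ± 0.09 and 1.19 ± 0.08 (edgeR, adjusted p = 3.8e-17 and 1.1e-18). MYC was higher with EC359 (log2 0.75 ± 0.03, edgeR, adjusted p = 8.7e-28) and the combination (log2 0.43 ± 0.03, edgeR, adjusted p = 7.6e-18) and lower with trametinib (log2 -0.52 ± 0.03, edgeR, adjusted p = 3.1e-19), the order also seen in TFRC and SAT1. Whether any of these regulators had a part in the changes of the 10 genes was not tested.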

How the data were processed

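RNA from 12 OVCAR8 samples was sequenced as stranded, paired 100 bp libraries. The authors assigned reads to genes with featureCounts 1.5.0-p1 on an hg38 annotation. HISAT2 is named in the submitters' processing notes without a version. The deposited values are expected counts without normalization, since reads with several placements or genes were divided as fractions, and 12.4% to 15.1% of genes per library were not whole. They were rounded to whole numbers.

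Low genes were removed with filterByExpr at its default settings (10 counts, total of 15), and 14865 genes were tested. With R 4.3.3, edgeR 4.0.16 (robust quasi-likelihood fit, TMM) was fitted to the 4 groups of 3 libraries together, and p-values were adjusted by Benjamini-Hochberg over all genes tested. The interaction is the combination effect minus the sum of the single-agent effects on the log2 scale, without a minimum fold change. Standard errors are the log2 fold change divided by the root of F, and intervals are 1.96 of them to either side. The biological coefficient of variation was 3.95%.

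Named genes were the 10 genes, all regulators, genes of each role list past both thresholds in any treatment against control or else the 2 with the lowest adjusted p in the combination, and the 3 genes most correlated with SLC7A11 and SAT1. Some genes that this rule names are not reported here. The genes and lists were chosen with earlier results of these data known. Alternatives were DESeq2 1.42.0, its size factors, total counts, other filters, only the groups compared, glmTreat of edgeR, no minimum fold, a replicate block and each library left out. Sequences came from GENCODE 29 and RefSeq (8 of 10 promoters matched). Counting used strand, so antisense SLC7A11-AS1 and neighbors on the other strand were kept apart.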

Additional observations from a re-analysis of the deposited data

Results flagged for a closer look

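For 4 of the 9 tested genes the effect of EC359 differed with and without trametinib, by the interaction term of the edgeR quasi-likelihood fit with Benjamini-Hochberg adjustment over all genes (30.3% of all genes passed). SLC7A11 had an interaction of -0.45 on the log2 scale, with a rise with EC359 of 2.33 from control and of 1.88 from trametinib. NCOA4 had -0.24, with an EC359 effect of -0.04 from control and -0.28 from trametinib. AIFM2 had 0.22, with effects of 0.63 and 0.85. ACSL4 had 0.11, with effects of 0.09 and 0.20, and this interaction did not pass with total counts only or without combination replicate 1, EC359 replicate 1 or trametinib replicate 3. The groups of 3 libraries were too small to look for single outlying samples.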

How the results depend on the processing

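The counts of changed genes past 2-fold were within 1.5 times under DESeq2, its size factors, total counts, other filters and only the groups compared, for the 9 genes and the 69 pathway genes alike. Without a minimum fold change the 9 genes gave 7 with EC359, 8 with trametinib, 7 with the combination and 8 for the combination against EC359 and against trametinib (from 2, 0, 2, 0 and 2), and the pathway genes gave 47, 21, 50, 39 and 50 (from 7, 0, 7, 0 and 7). With glmTreat of edgeR against 1.5-fold the 9 genes gave 4 with EC359, 1 with trametinib, 5 with the combination, 5 against trametinib and 0 for the interaction (from 4), and the pathway genes gave 1 with trametinib, 11 with the combination, 1 against EC359, 11 against trametinib and 1 for the interaction (from 28). The share of all genes past glmTreat is not given here, so these counts cannot be read against it. Leaving out 1 library gave 0 to 1 pathway genes with trametinib, the 1 without control replicate 2 or trametinib replicate 3. With total counts only, which moved the median of all genes to -0.15 with EC359, -0.14 with the combination and -0.16 for the combination against trametinib, the direction turned for ACSL4 (-0.042 with EC359, -0.14 with the combination), GPX4 (-0.082 with EC359, -0.12 against trametinib) and PCBP1 (-0.019 against trametinib). Over the single genes and alternatives, 4178 values kept their side of the adjusted p threshold, 61 lost the call and 25 gained it. Another 5 turned in direction where the main or the alternative value passed. Turns where neither passed are held within the 4178. An example is the FTL interaction, at 0.0062 in the main fit and -0.0234 with total counts only. Replicate numbers did not pair the samples (correlations of deviations from -0.0669 to 0.0304, 0 of 18 pairs over 0.1, 1 library closest to its own number), and with the replicate block the counts were 2, 0, 2, 0, 2 and 4 for the 9 genes and 8, 0, 7, 0, 7 and 29 for the pathway genes, in the order EC359, trametinib, combination, combination against EC359, against trametinib and interaction. Among all genes tested, the block gave 1035, 209, 1943, 487, 1718 and 4431 in the same order. Depth limits the lowest genes, SLC40A1 and PTGS2 first.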
